A study of Solanum lycopersicum with 26 samples.

Results

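The genes described here are the carbohydrate metabolism genes of the tomato seed, meaning every gene ID that the study's MapMan annotation (a functional classification of plant genes) places under the carbohydrate metabolism bin and that is a row of the count table. The bin held 269 such IDs. Leaving out the 16 that the annotation also places under photosynthesis or cellular respiration left 253 members of the 33976 IDs counted. By subgroup, 52 members belonged to sucrose metabolism, 54 to starch metabolism, 11 to trehalose metabolism and 9 to oligosaccharide metabolism, which here is the raffinose family. The remaining bins were nucleotide sugar biosynthesis with 78 members, the oxidative pentose phosphate pathway with 15, plastidial glycolysis with 10, mannose metabolism with 9, fermentation with 8, gluconeogenesis with 6, sorbitol metabolism with 2, and galactose and ribose metabolism with 1 each, and 3 members stood in more than 1 subgroup. Members are called by their ID and by the enzyme name of their bin.

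A seed imports sucrose, which invertases and sucrose synthases cleave, and it can hold carbon for a time as starch. Late in maturation many seeds build raffinose family oligosaccharides, in which galactinol synthase makes the galactosyl donor galactinol and raffinose synthase passes the galactosyl unit to sucrose. The bin named galactinol-sucrose galactosyltransferase describes that same transfer. Trehalose is present in most plants only in traces, and its precursor trehalose 6-phosphate, made by a synthase and removed by a phosphatase, acts as a signal of sucrose supply.

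RNA was sequenced from hand-dissected embryo (Em) and endosperm (End) of seeds of cv. Moneymaker. Fruits were detached at the breaker stage, 63 days after flowering (DAF). They then finished ripening off the plant over 7 days in a chamber with a photoperiod of 16 h, so that all seeds were 70 DAF old. The conditions were high temperature (32 °C by day, 26 °C by night) with high light of 300 µE (HT_HL), standard temperature (23 °C by day, 20 °C by night) with dim light of 25 µE (ST_DL), high temperature with dim light (HT_DL), and standard temperature with high light (ST_HL), which was the control. The paper describes 3 replicates, each a pool of 10 seeds from 2 fruits. Group sizes here follow the library labels. The source of the additional embryo libraries of HT_DL and ST_HL is not described. In the embryo HT_HL had 3 libraries, ST_DL 3, HT_DL 4 and ST_HL 4, and in the endosperm each condition had 3, which makes 26 libraries. Every group was thus kept on a detached fruit, ST_HL included.

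Values are CPM, that is, counts scaled to the depth of each library after TMM adjustment, and log2 fold changes come from edgeR's quasi-likelihood test with Benjamini-Hochberg adjustment over all genes tested. A gene was called where the adjusted p lay under 0.05 and the log2 fold change was above 1 or below -1. Only called genes are said to have risen or fallen. The p-values measure the spread between these pools of seeds. The paper describes no replicate chambers, so an effect of a condition and one of its chamber cannot be told apart. Total counts ran between 20450644 and 21519318 per library, and 3 counts corresponded to between 0.119 and 0.164 CPM, which is taken as the floor of detection. Gene lengths are not given in the sources used here, so levels were compared between libraries and not between genes. In dissected tissue, fewer cells of a type and less RNA per cell cannot be told apart.

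The first principal component of all 26 libraries (65.6% of the variance) separated every embryo library, at 102.7 to 124.6, from every endosperm library, at -143.3 to -128.3, and the sources used here annotate no marker gene of either tissue. Within the embryo, 4 libraries lay apart on the first component (64.3% of the variance): replicates 2 and 3 of ST_HL stood at 120.7 and 126.2, replicates 2 and 3 of HT_DL stood at 124.0 and 124.5, and the other 10 lay between -65.6 and -27.4. ST_HL is the control of every embryo comparison, so the counts of embryo calls and most of the embryo genes named are also given without these 4 libraries. Of the 253 members, 5 had no count in any library. The filter on low counts left 211 members in the embryo and 206 in the endosperm, 203 of them in both, and removed 39 in both tissues. Across the 6 comparisons with ST_HL of the same tissue, 29 members were called at least once.

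**Figure D1:**
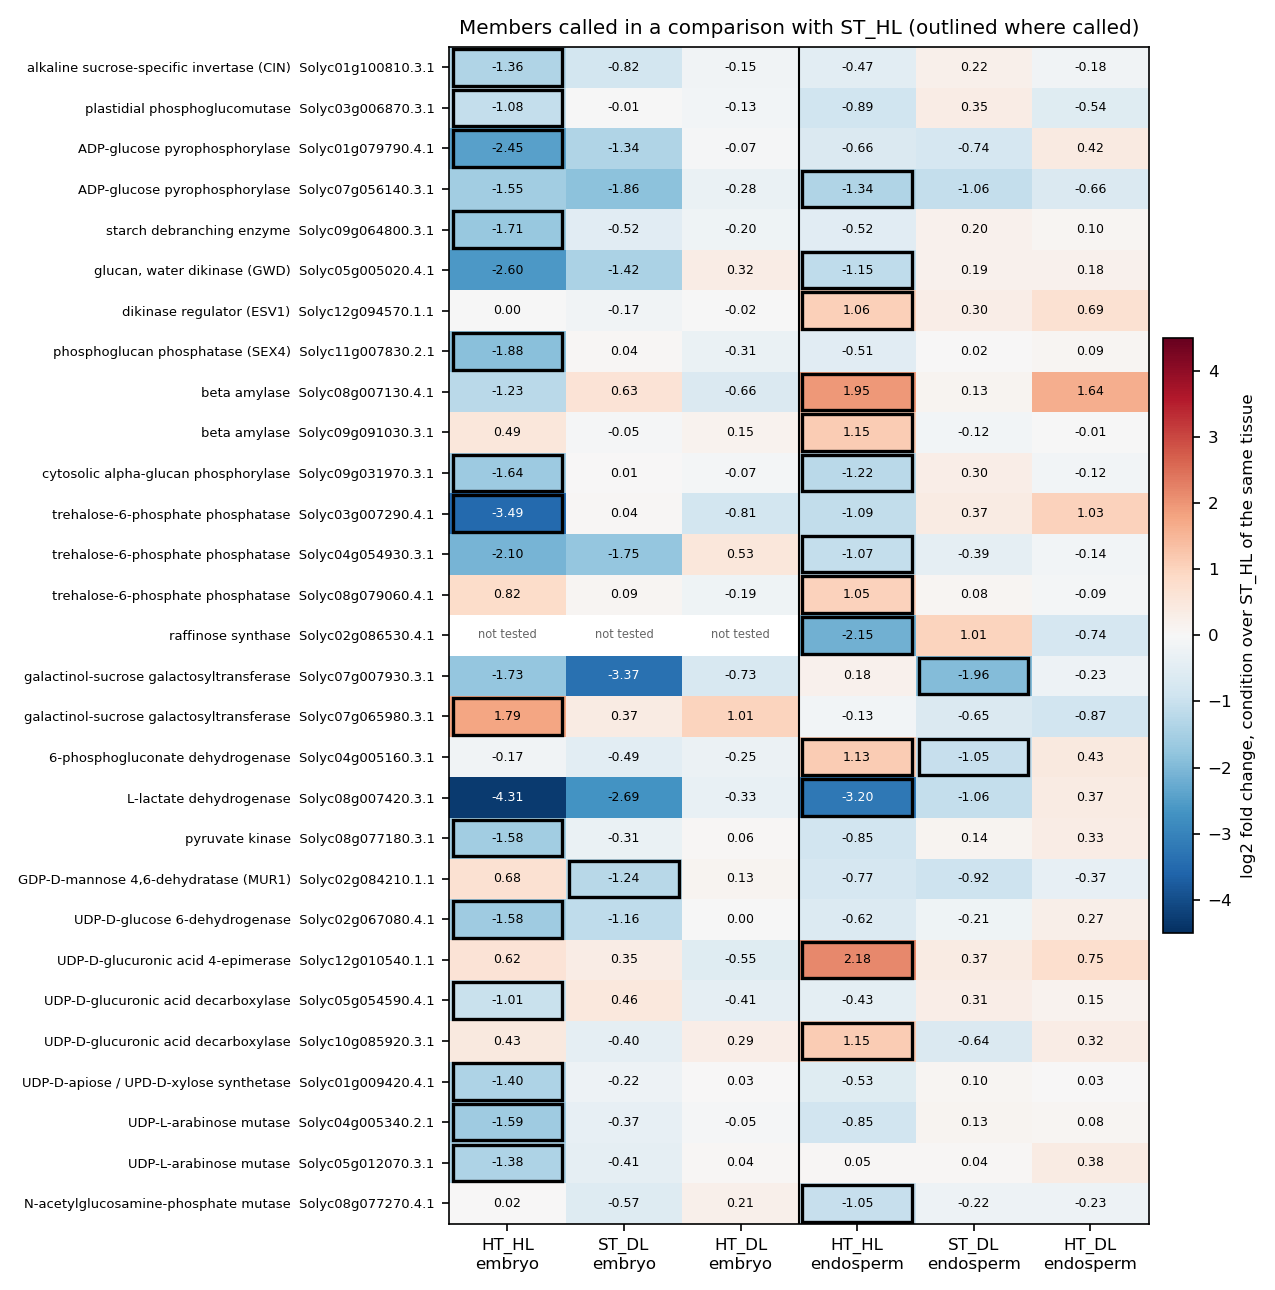
Log2 fold change over ST_HL of the same tissue for the 29 members called in at least 1 of the 6 comparisons, with genes as rows and comparisons as columns, red for higher and blue for lower. Outlined cells were called: 14 under HT_HL in the embryo, 14 under HT_HL in the endosperm, 1 under ST_DL in the embryo and 2 under ST_DL in the endosperm.

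High temperature in high light was compared with ST_HL to ask how heat during fruit ripening changed the transcripts of the embryo. In HT_HL_Em, 13 members fell and 1 rose of 211 tested. Over all 19253 genes tested, 3.41% were called lower and 1.43% higher, so the members called lower (6.16%) were a larger share than the background and those called higher (0.474%) a smaller one. The median log2 fold change of the members was -0.27, beside -0.07 for all genes. By adjusted p alone, 12 members were higher and 24 lower, where the background was 9.98% higher and 7.77% lower. The members that fell act in starch turnover, in the supply of nucleotide sugars for the cell wall, in trehalose 6-phosphate removal, in sucrose cleavage and in plastidial glycolysis. Subgroup counts given below, in either tissue, were not tested against the shares of all genes.

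The size of this list depended on single libraries. Without the 4 libraries that lie apart, 2 members rose and 5 fell of 199 tested, the 5 being among the 13. Over all genes of that fit 1.35% were called higher and 2.83% lower, and the members' counts were near these shares. The median of the members was then -0.02, beside 0.02 for all genes. Without HT_HL_Em replicate 1, 2 or 3, 2, 8 and 7 members fell. Without ST_HL_Em replicate 1, 2, 3 or 4, 18, 6, 4 and 13 fell. Of the 14 calls, 12 were lost in at least 1 of these 7 fits. The pyruvate kinase Solyc08g077180.3.1 and the trehalose-6-phosphate phosphatase Solyc03g007290.4.1 were called in all 7.

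Among the starch enzymes, Solyc11g007830.2.1, annotated as the phosphoglucan phosphatase SEX4, which removes phosphate from the granule surface during starch breakdown, had 1.61, 1.95 and 3.12 CPM in HT_HL_Em, against 4.83, 9.04, 13.2 and 5.78 CPM in ST_HL_Em (log2 fold change -1.88, SE 0.486, adjusted p = 0.0219). Solyc09g064800.3.1, an isoamylase-type debranching enzyme, which trims branches as amylopectin is built, had 2.19, 3.41 and 2.67 CPM in HT_HL_Em, against 4.97, 9.82, 13.7 and 7.72 CPM in ST_HL_Em (-1.71, SE 0.425, adjusted p = 0.0186). In both genes all 3 HT_HL libraries lay below all 4 ST_HL libraries, and within ST_HL the 2 libraries that lie apart were the highest. Both calls held without those libraries, at log2 -1.21 with adjusted p = 0.0245 for the phosphatase and -1.16 with adjusted p = 0.0204 for the debranching enzyme. Both were lost without HT_HL_Em replicate 1, and the phosphatase also without HT_HL_Em replicate 2 or ST_HL_Em replicate 3.

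Solyc03g006870.3.1, the plastidial phosphoglucomutase, which provides glucose 1-phosphate for starch synthesis, had 15.8, 22.1 and 18.5 CPM in HT_HL_Em, against 33.9, 42.8, 47 and 36 CPM in ST_HL_Em (log2 -1.08, SE 0.201, adjusted p = 0.00519). The groups did not overlap. Without the libraries that lie apart the difference was -0.85 with adjusted p = 0.00618, so that only the fold threshold was missed. Solyc09g031970.3.1, a cytosolic alpha-glucan phosphorylase, which handles the glucans made from exported maltose, had 4.05, 5.72 and 6.38 CPM in HT_HL_Em, against 8.87, 23.1, 25.6 and 9.48 CPM in ST_HL_Em (log2 -1.64, SE 0.474, adjusted p = 0.034). Its control libraries split into a low and a high pair, and without the libraries that lie apart its difference was -0.73 with adjusted p = 0.0515. The remaining starch gene called, the ADP-glucose pyrophosphorylase Solyc01g079790.4.1, was near the floor, with 0.124, 0.0397 and 0.317 CPM in HT_HL_Em and 0.422, 0.982, 1.44 and 0.722 CPM in ST_HL_Em (adjusted p = 0.038, and 0.107 without the libraries that lie apart).

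Other starch genes were higher in HT_HL_Em by adjusted p without reaching the fold threshold. Solyc02g080570.3.1, starch synthase SSIII, had 108, 105 and 106 CPM in HT_HL_Em, against 68.1, 71.3, 75.0 and 72.1 CPM in ST_HL_Em (log2 0.59, SE 0.103, adjusted p = 0.00393). Solyc02g071040.3.1, starch synthase SSIV, which takes part in granule initiation, had 29.8, 24.4 and 26.5 CPM in HT_HL_Em, against 17.4, 17.2, 19.2 and 16.5 CPM in ST_HL_Em (0.63, SE 0.103, adjusted p = 0.00289). For both synthases the replicates of each group lay close together, those of ST_HL that stand apart on the first component included. Solyc09g009190.4.1, a starch branching enzyme, differed the other way, with 32.9, 29.6 and 47.6 CPM in HT_HL_Em and 51.5, 54.2, 63.7 and 61.3 CPM in ST_HL_Em (log2 -0.64, SE 0.172, adjusted p = 0.0263). Without the 4 libraries the differences were 0.65 (adjusted p = 0.00524) for SSIII, 0.71 (adjusted p = 0.0106) for SSIV and -0.57 (adjusted p = 0.0803) for the branching enzyme. Of 18 starch biosynthesis members tested, 3 fell and none rose, with a median of -0.15. Of 30 starch degradation members, 3 fell and none rose, with a median of 0.04. Without the 4 libraries 1 of 18 and 2 of 28 fell and none rose, with medians of -0.19 and 0.17. The debranching enzyme counts in both lists.

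In nucleotide sugar biosynthesis, 5 of 64 members tested fell and none rose, where 3.41% of all genes were called lower and 1.43% higher. Solyc04g005340.2.1, a UDP-L-arabinose mutase, which makes the furanose form of arabinose used in cell wall polymers, had 15, 21.2 and 23.6 CPM in HT_HL_Em, against 35.6, 75.9, 87.8 and 40.8 CPM in ST_HL_Em (log2 -1.59, SE 0.424, adjusted p = 0.0248). A second mutase of the same bin, Solyc05g012070.3.1, had 12.1, 16.9 and 11.9 CPM in HT_HL_Em, against 22.8, 44.8, 50.0 and 25.2 CPM in ST_HL_Em (-1.38, SE 0.363, adjusted p = 0.023). Solyc02g067080.4.1, UDP-D-glucose 6-dehydrogenase, which opens the branch to UDP-glucuronic acid, had 4.22, 4.80 and 5.11 CPM in HT_HL_Em, against 8.44, 17.6, 22.4 and 8.12 CPM in ST_HL_Em (-1.58, SE 0.488, adjusted p = 0.0427). In all of these the HT_HL libraries were the lowest and ST_HL replicates 2 and 3 the highest. Solyc01g009420.4.1, a UDP-apiose/xylose synthase, showed the same order, with 31, 31.2 and 41.5 CPM in HT_HL_Em and 57.6, 110, 135 and 63.5 CPM in ST_HL_Em (-1.40, SE 0.405, adjusted p = 0.0341). Without the 4 libraries these differences were -0.90, -0.77, -0.77 and -0.76 in the order given, each with an adjusted p between 0.0119 and 0.0263 and each below the fold threshold.

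The fifth gene did not follow that order. Solyc05g054590.4.1, a UDP-D-glucuronic acid decarboxylase, which makes UDP-xylose, had 6.54, 7.94 and 6.74 CPM in HT_HL_Em, against 19.1, 9.65, 11.9 and 17.0 CPM in ST_HL_Em (log2 -1.01, SE 0.218, adjusted p = 0.0102). Here ST_HL replicates 2 and 3 were the lower pair of the control, and without the 4 libraries the difference was -1.31 with adjusted p = 0.00348. The median of the 64 nucleotide sugar members was -0.59 with all libraries and 0.03 without the 4.

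Beside 3.41% of all genes called lower, 1 of 41 members tested in sucrose metabolism fell. This was Solyc01g100810.3.1, an alkaline invertase (CIN), a cytosolic enzyme that splits sucrose into glucose and fructose, with 1.70, 2.30 and 1.49 CPM in HT_HL_Em, against 3.33, 5.36, 7.00 and 3.25 CPM in ST_HL_Em (log2 -1.36, SE 0.376, adjusted p = 0.028; -0.80 with adjusted p = 0.0577 without the 4 libraries). Of the 26 sucrose degradation members, 21 had a negative log2 fold change, with a median of -0.72. Without the 4 libraries 15 of 22 were negative and the median was -0.17. Solyc07g007790.3.1, a sucrose-phosphate synthase, the enzyme that commits hexose phosphates to sucrose, was higher by adjusted p alone, with 292, 271 and 295 CPM in HT_HL_Em and 236, 180, 149 and 210 CPM in ST_HL_Em (log2 0.58, SE 0.158, adjusted p = 0.0264), and without the 4 libraries its difference was 0.41 with adjusted p = 0.0289.

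Solyc08g077180.3.1, a plastidial pyruvate kinase, which makes pyruvate for reactions inside the plastid, fell with the smallest adjusted p of the members called. It had 1.82, 3.81 and 1.95 CPM in HT_HL_Em, against 6.80, 6.22, 9.10 and 8.44 CPM in ST_HL_Em (log2 -1.58, SE 0.238, adjusted p = 0.00208). The libraries that lie apart did not stand out for this gene, and without them the difference was -1.54 with adjusted p = 0.00845. Solyc11g010450.2.1, an ATP-dependent phosphofructokinase of the plastidial glycolysis bin, which commits hexose phosphate to glycolysis, was higher by adjusted p alone, with 49.1, 48.9 and 52.2 CPM in HT_HL_Em and 34.5, 29.7, 30.3 and 29.0 CPM in ST_HL_Em (log2 0.71, SE 0.129, adjusted p = 0.0046; 0.70 with adjusted p = 0.0191 without the 4 libraries).

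Trehalose and raffinose genes each gave 1 call in the HT_HL embryo. The trehalose-6-phosphate phosphatase Solyc03g007290.4.1 had 0.0827, 0 and 0.0452 CPM in HT_HL_Em, all below the floor, against 0.422, 0.573, 0.741 and 0.406 CPM in ST_HL_Em (adjusted p = 0.0128, and 0.0308 without the 4 libraries). It fell, but at this depth the size of the change cannot be stated well and no fold is given. Solyc07g065980.3.1, a galactinol-sucrose galactosyltransferase, was the single member that rose, with 1.82, 0.953 and 3.26 CPM in HT_HL_Em and 0.563, 0.818, 0.576 and 0.361 CPM in ST_HL_Em (log2 1.79, SE 0.479, adjusted p = 0.0248). All 3 HT_HL libraries were above all 4 ST_HL libraries. The call was lost without HT_HL_Em replicate 1 or 3 or without ST_HL_Em replicate 3 or 4, and it held without the 4 libraries that lie apart (log2 2.15, adjusted p = 0.0465).

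The same condition was compared in the endosperm. On the first component of the endosperm libraries (39.9% of the variance) the 3 HT_HL libraries lay between 54.5 and 68.0. HT_DL replicate 3 at -65.5 was far from the 24.5 and 17.6 of its replicates, ST_DL replicate 1 at -61.2 was far from -6.4 and -3.1, and ST_HL replicates 1, 2 and 3 spread over 8.9, -57.7 and -36.9. In HT_HL_End, 7 members rose and 7 fell of 206 tested, 3.40% in each direction. Over all 19185 genes tested, 3.17% were called higher and 2.67% lower, so the members' shares were near the background. By adjusted p alone 21 members were higher and 34 lower, where the background was 13.3% higher and 10.4% lower. The median of the members was -0.10, beside -0.00211 for all genes. Without ST_HL_End replicate 2, the lowest of the control on that component, 7 rose and 8 fell, 6 of each among those called with all libraries. Starch degradation gave 5 of the 14 calls, in both directions, and starch biosynthesis 1.

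Genes of beta amylase, which releases maltose from starch, were among those that rose. Solyc09g091030.3.1 had 172, 124 and 185 CPM in HT_HL_End, against 83.5, 73.2 and 62.5 CPM in ST_HL_End (log2 1.15, SE 0.16, adjusted p = 0.000905). Solyc08g007130.4.1 had 4.19, 8.31 and 2.18 CPM in HT_HL_End, against 1.41, 0.913 and 1.5 CPM in ST_HL_End (1.95, SE 0.438, adjusted p = 0.00906). Neither gene's groups overlapped. Summed over all beta amylase members, HT_HL_End had 308, 270 and 331 CPM and ST_HL_End had 226, 215 and 203 CPM. Solyc12g094570.1.1, annotated as ESV1, a regulator of starch phosphorylation and breakdown, rose to 3.04, 3.74 and 3.98 CPM in HT_HL_End, against 1.57, 2.18 and 1.45 CPM in ST_HL_End (1.06, SE 0.242, adjusted p = 0.00984).

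Other steps of starch breakdown fell. The cytosolic alpha-glucan phosphorylase Solyc09g031970.3.1, which also fell in the embryo, had 5.74, 5.66 and 6.77 CPM in HT_HL_End, against 15.7, 12.2 and 14.8 CPM in ST_HL_End (log2 -1.22, SE 0.123, adjusted p = 0.00029). Solyc05g005020.4.1, glucan, water dikinase (GWD), which phosphorylates the granule and so opens it to the amylases, had 14.0, 14.9 and 25.3 CPM in HT_HL_End, against 33.7, 46.2 and 41.3 CPM in ST_HL_End (-1.15, SE 0.288, adjusted p = 0.0149). The phosphorylase was the only member called in both tissues under HT_HL, and in the endosperm its replicates lay close together.

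Of the 18 starch biosynthesis members tested in the endosperm, 16 had a negative log2 fold change, with a median of -0.51, and 1 was called. This was Solyc07g056140.3.1, a subunit gene of ADP-glucose pyrophosphorylase, the enzyme that makes the glucosyl donor of starch, with 3.19, 5.36 and 2.62 CPM in HT_HL_End and 6.32, 12.8 and 9.50 CPM in ST_HL_End (adjusted p = 0.0105). Several others were lower by adjusted p alone. The plastidial phosphoglucomutase Solyc03g006870.3.1 had 6.23, 6.34 and 5.73 CPM in HT_HL_End, against 12.5, 10.9 and 11 CPM in ST_HL_End (log2 -0.89, SE 0.145, adjusted p = 0.00187). The starch branching enzyme Solyc09g009190.4.1 had 25.0, 28.7 and 34.1 CPM in HT_HL_End, against 56.8, 49.7 and 54.5 CPM in ST_HL_End (-0.86, SE 0.114, adjusted p = 0.000722). Solyc08g083320.4.1, the granule-bound starch synthase, which makes amylose, had 137, 139 and 175 CPM in HT_HL_End, against 217, 208 and 221 CPM in ST_HL_End (-0.51, SE 0.108, adjusted p = 0.007). None of these 3 genes overlapped between the groups. The summed CPM of the starch biosynthesis members was 468, 500 and 541 in HT_HL_End and 688, 637 and 690 in ST_HL_End.

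**Figure D2:**
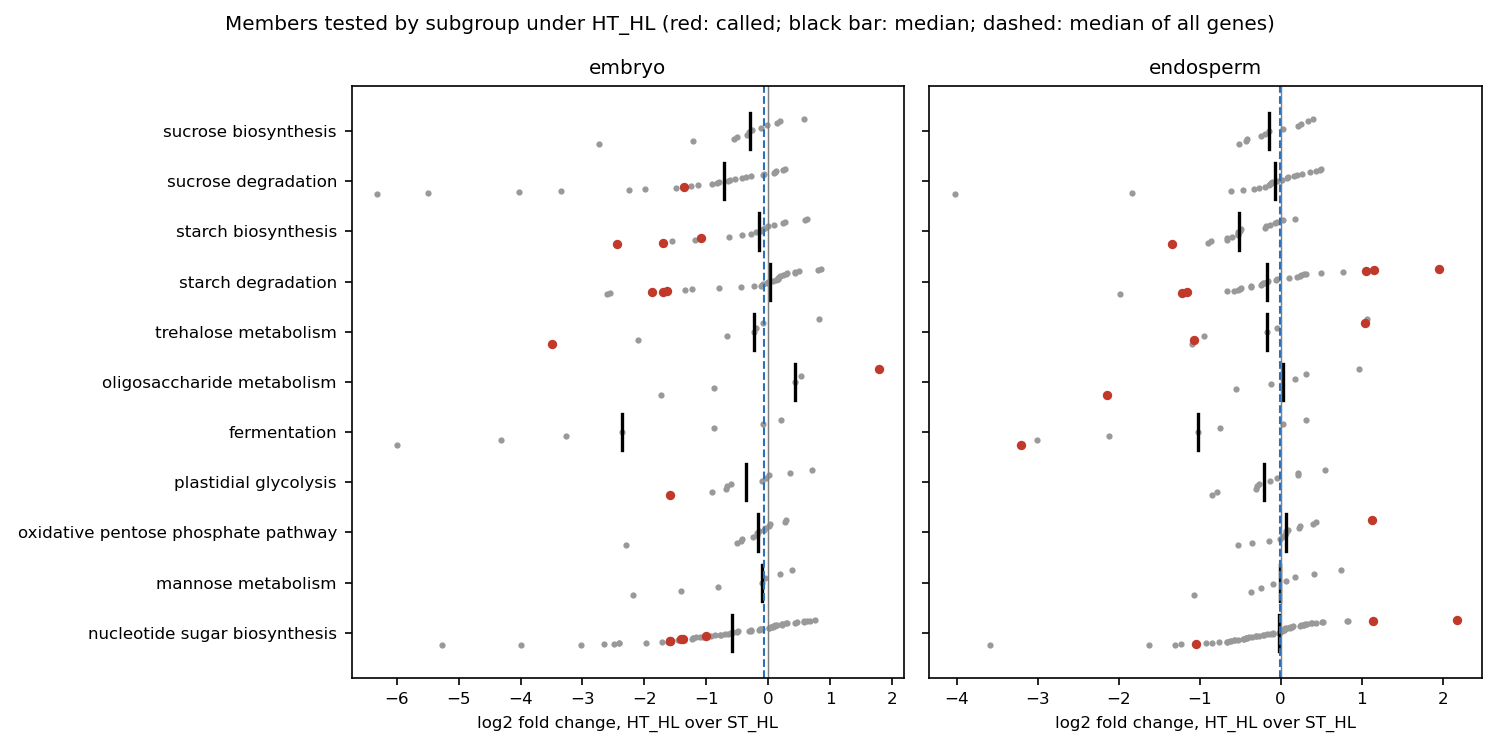
Log2 fold change of HT_HL over ST_HL for each tested member by subgroup, in the embryo and in the endosperm, with called members in red, the subgroup median as a black bar and the median of all genes as a dashed line. Starch biosynthesis lay mostly below 0 in the endosperm (median -0.51), and the embryo medians with all libraries included were -0.72 for sucrose degradation, -0.59 for nucleotide sugars and -2.36 for fermentation.

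In trehalose metabolism, 1 of 7 members tested rose and 1 fell in HT_HL_End, and both encode trehalose-6-phosphate phosphatase. Solyc08g079060.4.1 had 97.7, 93.6 and 77.2 CPM in HT_HL_End, against 42.8, 47 and 41.3 CPM in ST_HL_End (log2 1.05, SE 0.117, adjusted p = 0.000463). Solyc04g054930.3.1 had 10.9, 11.2 and 9.22 CPM in HT_HL_End, against 21.9, 22.6 and 21.8 CPM in ST_HL_End (-1.07, SE 0.118, adjusted p = 0.000434). Summed over all phosphatase members, HT_HL_End had 114, 109 and 89.6 CPM and ST_HL_End had 66.8, 73.5 and 65.5 CPM, since the gene that rose held most of the counts. The synthase Solyc07g062140.3.1 was lower by adjusted p alone, with 46.3, 60.0 and 80.3 CPM in HT_HL_End and 135, 98.6 and 128 CPM in ST_HL_End (-0.94, SE 0.191, adjusted p = 0.00553). The other synthase tested, Solyc02g071590.3.1, had 6.88, 7.13 and 6.5 CPM in HT_HL_End among the 8.36, 5.99 and 8.95 CPM of ST_HL_End (-0.17, adjusted p = 0.543). In the embryo the phosphatase Solyc08g079060.4.1 was higher by adjusted p alone (55.8, 62.4 and 67.1 CPM in HT_HL_Em, against 42.4, 38.4, 27.4 and 33.1 CPM in ST_HL_Em, log2 0.82, SE 0.141, adjusted p = 0.0036; 0.76 with adjusted p = 0.00919 without the 4 libraries), and the synthase Solyc07g062140.3.1 had 84.1, 90.3 and 127 CPM in HT_HL_Em and 140, 86.6, 108 and 146 CPM in ST_HL_Em, which overlapped.

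In the raffinose family, 1 of 6 members tested fell in HT_HL_End. Solyc02g086530.4.1, raffinose synthase, had 0.0997, 0.590 and 0.164 CPM in HT_HL_End, against 1.36, 1.17 and 1.40 CPM in ST_HL_End (adjusted p = 0.0111). Replicates 1 and 3 of HT_HL_End were at or below the floor, so no fold is given. Upstream of it, the galactinol synthase Solyc01g079170.3.1 was higher by adjusted p alone, with 37.9, 34.2 and 37.1 CPM in HT_HL_End and 20.5, 18.1 and 17.9 CPM in ST_HL_End (0.97, SE 0.128, adjusted p = 0.000727). The groups of both genes were apart, in opposite directions. A second galactinol synthase, Solyc01g100830.2.1, had 216, 135 and 312 CPM in HT_HL_End and 198, 204 and 138 CPM in ST_HL_End, which overlapped. The galactosyltransferases, whose bin name describes the same step as raffinose synthase, were not called in HT_HL_End.

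**Figure D3:**
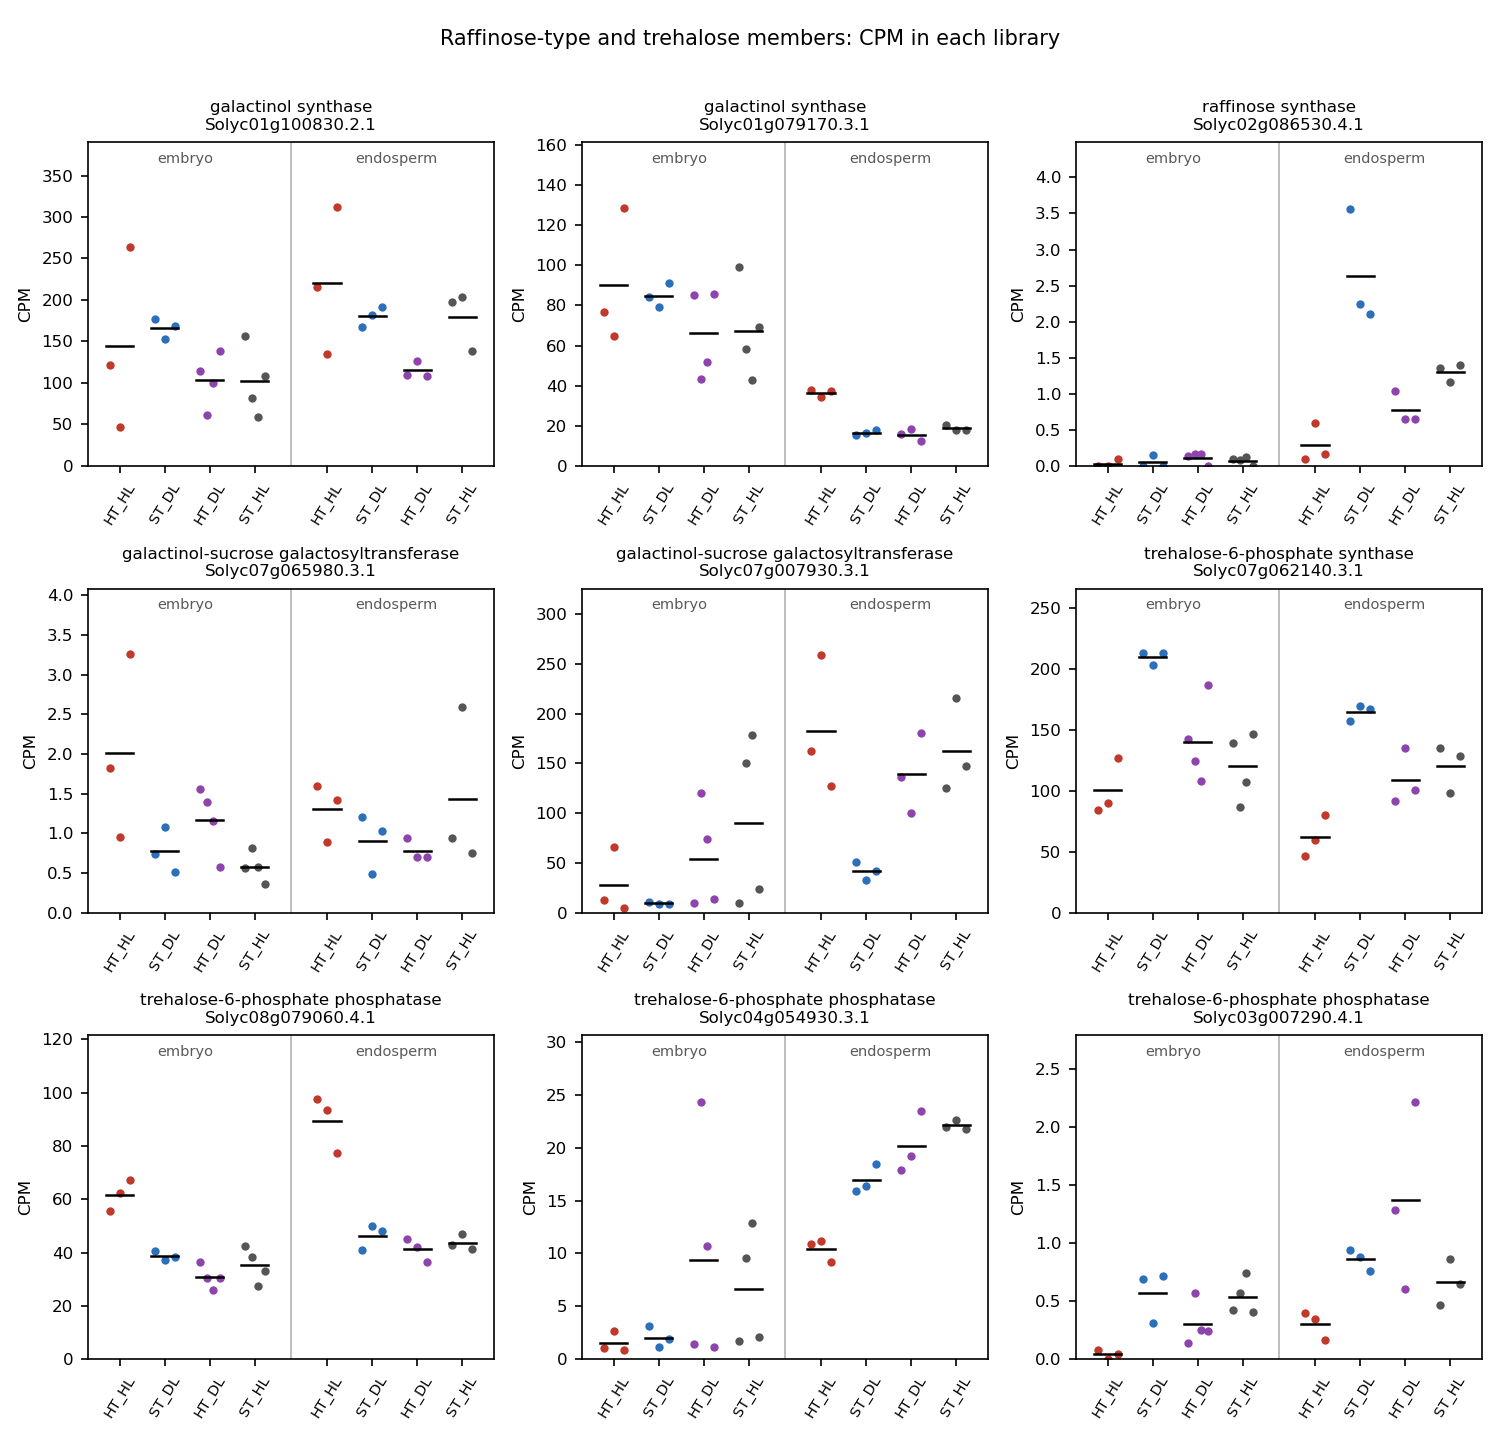
CPM in each library (points) and group mean (bars) for 9 raffinose family and trehalose genes, with the conditions in the embryo on the left and in the endosperm on the right of each panel. The phosphatase Solyc08g079060.4.1 reached 77.2 to 97.7 CPM in HT_HL_End, above every other endosperm library, and the galactosyltransferase Solyc07g007930.3.1 lay between 32.7 and 51.1 CPM in ST_DL_End, below every other endosperm library.

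The other calls in HT_HL_End lay in the pentose phosphate pathway, in nucleotide sugars and in fermentation. Solyc04g005160.3.1, 6-phosphogluconate dehydrogenase, which yields NADPH, rose to 23.9, 25.5 and 21.0 CPM in HT_HL_End, against 12.5, 10.4 and 9.55 CPM in ST_HL_End (log2 1.13, SE 0.228, adjusted p = 0.00538). Solyc12g010540.1.1, UDP-D-glucuronic acid 4-epimerase, which makes UDP-galacturonic acid for pectin, rose to 8.08, 3.64 and 5.02 CPM in HT_HL_End, against 1.10, 1.73 and 0.900 CPM in ST_HL_End (2.18, SE 0.448, adjusted p = 0.00593). The pectin precursor gene had the largest fold change of the endosperm members that rose. The decarboxylase Solyc10g085920.3.1 had 3.74, 3.25 and 2.18 CPM in HT_HL_End, against 1.67, 0.812 and 1.70 CPM in ST_HL_End (adjusted p = 0.0362). Solyc08g077270.4.1, an N-acetylglucosamine-phosphate mutase, fell to 1.95, 2.21 and 2.35 CPM in HT_HL_End, against 4.33, 4.41 and 4.80 CPM in ST_HL_End (-1.05, SE 0.148, adjusted p = 0.00101). The L-lactate dehydrogenase Solyc08g007420.3.1 was near the floor, with 0, 0.0984 and 0.0546 CPM in HT_HL_End and 0.104, 0.913 and 0.550 CPM in ST_HL_End (adjusted p = 0.0476), so no fold is given. Outside the calls, the phosphomannose isomerase Solyc02g063220.3.1, at the entry to mannose metabolism, had 90.7, 68.3 and 82.3 CPM in HT_HL_End and 48.3, 44.4 and 52.8 CPM in ST_HL_End (0.74, SE 0.105, adjusted p = 0.000998).

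In the endosperm, 5 to 7 members rose and 3 to 8 fell when any single library was left out. The lowest count of 3 came without HT_HL_End replicate 1, where the pyrophosphorylase (adjusted p = 0.0532), GWD (adjusted p = 0.0733) and the N-acetylglucosamine-phosphate mutase (log2 -0.97) were among those lost, as was the phosphatase Solyc08g079060.4.1 (log2 0.98). GWD was also lost without HT_HL_End replicate 2 (adjusted p = 0.0549), the phosphatase Solyc04g054930.3.1 without HT_HL_End replicate 3 (log2 -0.98), the mutase without ST_HL_End replicate 3 (log2 -0.99), and ESV1 without HT_HL_End replicate 3, ST_HL_End replicate 1 or ST_HL_End replicate 3 (log2 0.95 to 0.98). The decarboxylase Solyc10g085920.3.1 and the lactate dehydrogenase Solyc08g007420.3.1 were each lost in 5 of the 6 fits that left out a library.

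Across the tissues, 36 members in the embryo and 55 in the endosperm passed the adjusted p alone under HT_HL, and 21 did so in both. These were 10.3% of the 203 members tested in both tissues. Among those 203, they were 58.3% of the 36 that passed in the embryo and 38.9% of the 54 that passed in the endosperm. Of the 17352 genes tested in both tissues, 8.03% passed in both. Among those 17352, this was 42.1% of the genes that passed in the embryo and 32.8% of the genes that passed in the endosperm. The controls of the tissues are separate libraries, but the paper dissected embryo and endosperm from the seeds it collected, so they may share seeds and fruits. Of these 21, 6 were higher in both tissues, 13 lower in both and 2 opposite. Those higher in both included the alpha amylase Solyc03g095710.4.1, an endo-acting starch hydrolase, with 12.8, 9.84 and 11.8 CPM in HT_HL_Em against 7.69, 7.24, 4.61 and 6.09 CPM in ST_HL_Em (log2 0.86, adjusted p = 0.0239), and with 9.82, 8.36 and 8.13 CPM in HT_HL_End against 5.69, 4.97 and 4.90 CPM in ST_HL_End (0.77, adjusted p = 0.00158). They also included Solyc06g050230.4.1, the phosphoglucan phosphatase LSF2, with 56.1, 60.8 and 49.8 CPM in HT_HL_Em against 32.8, 28.3, 34.6 and 32.4 CPM in ST_HL_Em (0.81, adjusted p = 0.00159), and with 73.1, 66.2 and 65.1 CPM in HT_HL_End against 50.2, 53.0 and 42.9 CPM in ST_HL_End (0.50, adjusted p = 0.00566). The remaining 4 were the granule initiation factor PTST2 (Solyc05g006930.3.1), the phosphatase Solyc08g079060.4.1, a ribokinase and the phosphofructokinase Solyc11g010450.2.1. Among the 13 lower in both were the plastidial phosphoglucomutase, the debranching enzyme Solyc09g064800.3.1, the branching enzyme Solyc09g009190.4.1, SEX4, the cytosolic phosphorylase and the pyruvate kinase. Starch breakdown genes were thus on both sides. The genes of the starch biosynthesis bin with the same direction in both tissues were all lower, while PTST2, of the separate granule initiation bin, was higher. Without the 4 embryo libraries the embryo differences of the alpha amylase and LSF2 were 0.79 (adjusted p = 0.0304) and 0.82 (adjusted p = 0.00798).

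Whether the effect of HT_HL differed between the tissues was tested in a fit of all libraries, as the log2 fold change in the embryo minus that in the endosperm. It differed for 6 of 213 members tested, where 1.73% of all 21153 genes passed the adjusted p. The clearest was SSIII (Solyc02g080570.3.1), which was higher under HT_HL in the embryo as given above and lower in the endosperm, with 25.3, 30.7 and 27.4 CPM in HT_HL_End and 45.9, 35.7 and 40.0 CPM in ST_HL_End (log2 -0.53 in the endosperm, adjusted p = 0.00583; difference 1.12, SE 0.146, adjusted p = 0.00118). Solyc06g051270.3.1, GDP-D-mannose pyrophosphorylase (VTC1), which makes the GDP-mannose used for ascorbate and cell wall polymers, was the other gene that passed the adjusted p in both tissues with opposite directions. It had 102, 63.7 and 111 CPM in HT_HL_Em against 65.6, 53.7, 46.0 and 55.5 CPM in ST_HL_Em, and 140, 124 and 176 CPM in HT_HL_End against 180, 219 and 210 CPM in ST_HL_End (difference 1.21, SE 0.275, adjusted p = 0.0308).

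For SSIV the difference was 0.59 (SE 0.141, adjusted p = 0.0367), and its endosperm values of 27.7, 28.9 and 27.9 CPM in HT_HL_End lay among the 27.6, 28.6 and 27.1 CPM of ST_HL_End. The beta amylase Solyc08g007130.4.1, which rose in the endosperm, had 0.207, 0.437 and 0.0452 CPM in HT_HL_Em, the last below the floor, and 0.469, 0.286, 0.659 and 0.812 CPM in ST_HL_Em (difference -3.17, SE 0.784, adjusted p = 0.0421). Another beta amylase, Solyc01g094580.3.1, had 70.3, 67.8 and 67.6 CPM in HT_HL_Em against 58.7, 50.2, 57.9 and 58.8 CPM in ST_HL_Em, and 59.4, 62.1 and 73.9 CPM in HT_HL_End against 79.3, 76.4 and 72.6 CPM in ST_HL_End (difference 0.51, SE 0.123, adjusted p = 0.0381). The hexokinase Solyc06g066440.3.1, which phosphorylates the hexoses released from sucrose, had 19.6, 23.4 and 18.0 CPM in HT_HL_Em among the 21.9, 19.9, 23.1 and 20.9 CPM of ST_HL_Em, and 17.8, 19.1 and 16.3 CPM in HT_HL_End above the 12.8, 12.8 and 12.6 CPM of ST_HL_End (difference -0.55, SE 0.134, adjusted p = 0.0381). Genes of the same bin therefore differed between the tissues in opposite directions. Without the 4 embryo libraries that lie apart, 6 members were again called, 4 of them the same, where 2.39% of all genes passed, and the hexokinase (adjusted p = 0.0822) and VTC1 (adjusted p = 0.0592) were lost.

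**Figure D4:**
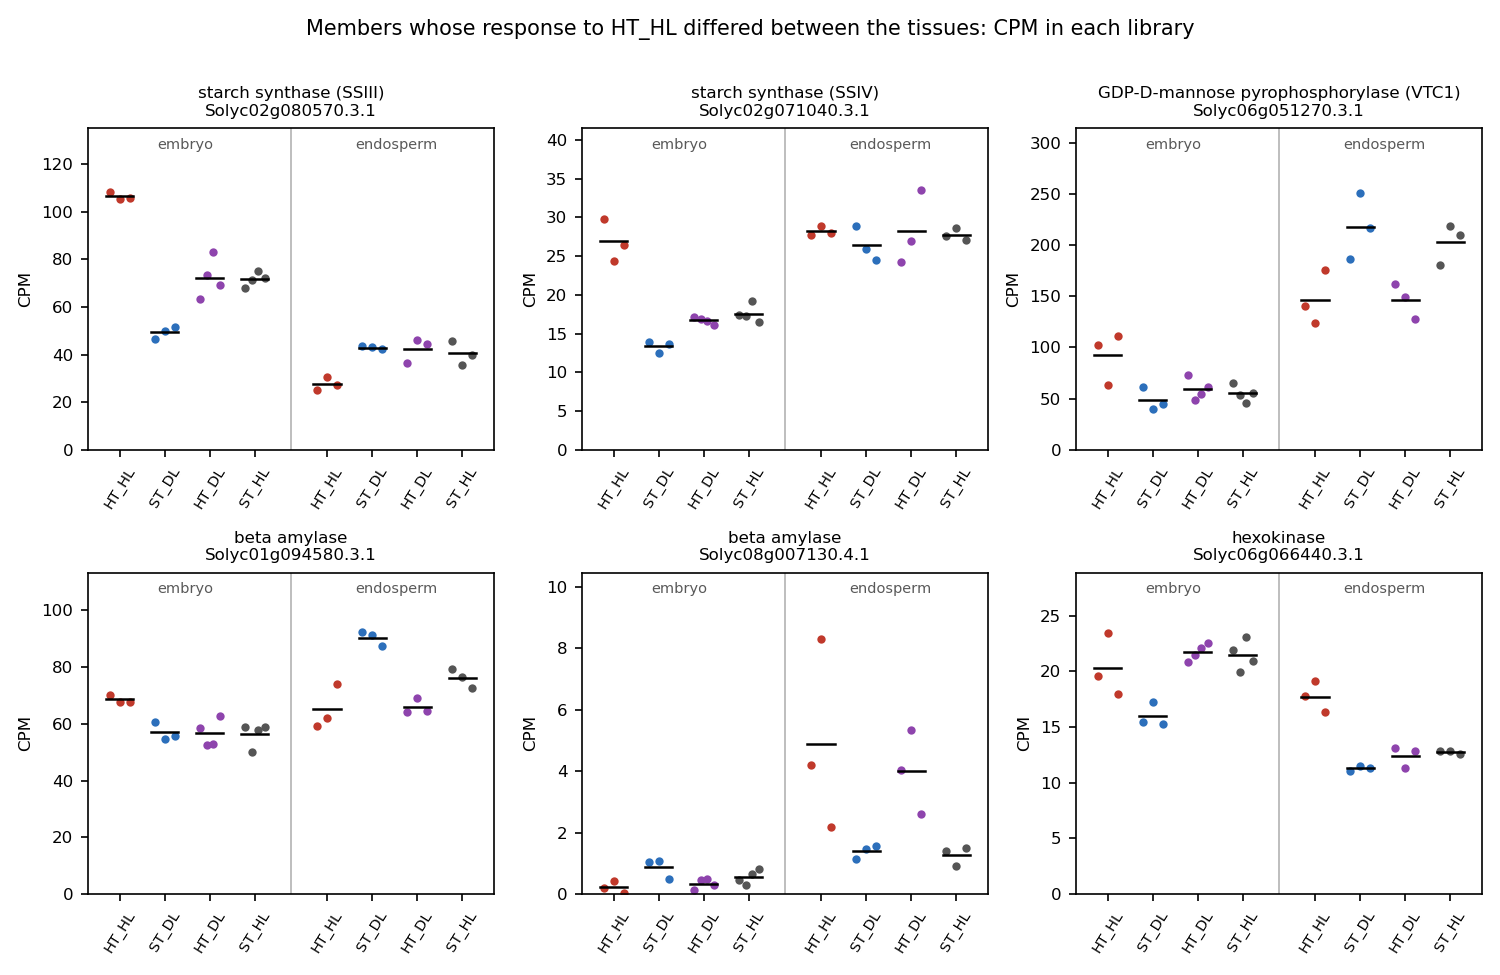
CPM in each library (points) and group mean (bars) for the 6 members whose response to HT_HL differed between embryo (left of each panel) and endosperm (right). SSIII reached 105 to 108 CPM in HT_HL_Em, above the 68.1 to 75.0 CPM of ST_HL_Em, and 25.3 to 30.7 CPM in HT_HL_End, below the 35.7 to 45.9 CPM of ST_HL_End.

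Dim light at standard temperature was compared with ST_HL to ask what less light on the fruit changed. In ST_DL_Em, 1 of 211 members fell and none rose, where 0.493% of all genes were called lower and 0.0935% higher. By adjusted p alone 1 was higher and 6 lower, where the background was 1.13% higher and 0.893% lower. The member that fell was Solyc02g084210.1.1, GDP-D-mannose 4,6-dehydratase (MUR1), which leads to GDP-fucose, with 2.22, 2.36 and 1.47 CPM in ST_DL_Em and 4.32, 4.09, 5.56 and 4.56 CPM in ST_HL_Em (log2 -1.24, SE 0.25, adjusted p = 0.0299). The call was lost in 6 of the 7 fits that left out a library, all but that without ST_HL_Em replicate 1, and without the 4 libraries that lie apart the difference was -1.14 with adjusted p = 0.122. No member was called without these 4, where 0.226% of all genes were called lower and 0.0605% higher.

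By adjusted p alone, the alkaline invertase Solyc04g081440.3.1 was the member that was higher, with 701, 570 and 538 CPM in ST_DL_Em and 389, 311, 311 and 346 CPM in ST_HL_Em (log2 0.79, SE 0.149, adjusted p = 0.0223). This gene had 232, 202 and 312 CPM in HT_HL_Em, and it held 18.3% of all counts of the sucrose members in the embryo and 24.2% in the endosperm. SSIII was lower in ST_DL_Em, with 46.8, 50.0 and 51.8 CPM against 68.1, 71.3, 75.0 and 72.1 CPM in ST_HL_Em (-0.57, SE 0.105, adjusted p = 0.0201). The phosphofructokinase Solyc11g010450.2.1 was lower as well, with 24.5, 18.3 and 20.6 CPM in ST_DL_Em and 34.5, 29.7, 30.3 and 29.0 CPM in ST_HL_Em (adjusted p = 0.0446). For SSIII and the phosphofructokinase the ST_DL and HT_HL libraries lay on opposite sides of all ST_HL libraries. The trehalose-6-phosphate synthase Solyc07g062140.3.1 had 213, 203 and 213 CPM in ST_DL_Em, above the 140, 86.6, 108 and 146 CPM of ST_HL_Em, and did not pass the threshold (0.78, SE 0.199, adjusted p = 0.0646). With the 4 libraries left out the differences were 0.71 (adjusted p = 0.117) for the invertase, -0.50 (adjusted p = 0.0564) for SSIII, -0.59 (adjusted p = 0.123) for the phosphofructokinase and 0.55 (adjusted p = 0.187) for the synthase, so that none of them passed.

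In ST_DL_End, 2 of 206 members fell and none rose, where 0.865% of all genes were called lower and 0.276% higher. By adjusted p alone 1 was higher and 6 lower, where the background was 1.7% higher and 2.06% lower. Solyc07g007930.3.1, a galactinol-sucrose galactosyltransferase, had 51.1, 32.7 and 41.9 CPM in ST_DL_End, against 125, 216 and 147 CPM in ST_HL_End (log2 -1.96, SE 0.314, adjusted p = 0.00833). The 6-phosphogluconate dehydrogenase Solyc04g005160.3.1, which rose in HT_HL_End, fell to 3.88, 7.06 and 4.81 CPM in ST_DL_End, against 12.5, 10.4 and 9.55 CPM in ST_HL_End (-1.05, SE 0.237, adjusted p = 0.0345). Neither gene's groups overlapped. The galactosyltransferase was lost without ST_DL_End replicate 2 (adjusted p = 0.0508), and the dehydrogenase was lost in the other 5 fits that left out a library (adjusted p 0.0671 to 0.137).

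Members that passed the adjusted p alone in ST_DL_End included the phosphomannose isomerase Solyc02g063220.3.1, with 25.5, 26.0 and 26.0 CPM in ST_DL_End and 48.3, 44.4 and 52.8 CPM in ST_HL_End (log2 -0.91, SE 0.107, adjusted p = 0.00186). The phosphofructokinase Solyc11g010450.2.1 had 20.8, 19.6 and 18.1 CPM in ST_DL_End and 29.0, 33.9 and 29.0 CPM in ST_HL_End (-0.65, SE 0.0891, adjusted p = 0.00428). It passed the adjusted p in both tissues under both HT_HL and ST_DL, higher in the first condition and lower in the second. Both conditions share the ST_HL libraries as their control. The raffinose synthase Solyc02g086530.4.1 had 3.56, 2.24 and 2.11 CPM in ST_DL_End, above the 1.36, 1.17 and 1.40 CPM of ST_HL_End (log2 1.01, adjusted p = 0.224), and was not called. None of the members passed the test of a tissue difference under ST_DL, where 0.0378% of all genes did. At an unadjusted p below 0.05, 7 of the 213 had a positive and 14 a negative difference, where 4.44% and 4.27% of all genes had. None passed without the 4 embryo libraries either, where 0.0918% of all genes did.

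High temperature in dim light gave no call among the members in either tissue. In HT_DL_Em no gene of the whole table was called, the background being 0.0% higher and 0.0% lower, and at an unadjusted p below 0.05 edgeR gave 9 members higher and 6 lower, where 2.75% and 2.47% of all genes were. DESeq2 and limma's voom also called no member there. Neither did edgeR without the 4 libraries, where 0.033% of all genes were lower, but that fit kept only replicates 1 and 4 of HT_DL_Em and ST_HL_Em. In HT_DL_End, 0.354% of all genes were called higher and 0.245% lower, and at an unadjusted p below 0.05 edgeR gave 18 members higher and 12 lower, where 5.17% and 5.79% of all genes were. DESeq2 called 1 member higher there and voom none. By adjusted p alone 1 member was higher and none lower, where the background was 0.5% higher and 0.537% lower. This was the beta amylase Solyc01g067660.3.1, with 56.1, 68.2 and 82.7 CPM in HT_DL_End and 34.7, 37.5 and 37.0 CPM in ST_HL_End (log2 0.91, adjusted p = 0.0375), and it no longer passed without HT_DL_End replicate 2 or 3 or any 1 of the ST_HL_End replicates. The beta amylase Solyc08g007130.4.1, called under HT_HL, had 4.05, 5.33 and 2.61 CPM in HT_DL_End and 1.41, 0.913 and 1.5 CPM in ST_HL_End (1.64, adjusted p = 0.12). All 6 raffinose family members tested had a negative log2 fold change in HT_DL_End, with a median of -0.47 beside 0.00812 for all genes. None of these 6 passed the adjusted p. In HT_DL_Em the directions were mixed, with 2 galactinol synthases positive and 1 negative, and 1 galactosyltransferase in each direction. No member passed the test of a tissue difference under HT_DL, where 0.00945% of all genes did. At an unadjusted p below 0.05, 5 had a positive and 4 a negative difference, where 1.81% and 2.2% of all genes had. None passed without the 4 embryo libraries either, where 0.058% of all genes did.

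Beyond the calls, fermentation and sucrose cleavage genes varied widely between replicates of one condition, and the libraries with high values were mostly the 4 embryo libraries that lie apart. The alcohol dehydrogenase Solyc06g059740.4.1, which regenerates NAD+ in the absence of oxygen, had 4.92, 444, 241 and 5.36 CPM in HT_DL_Em and 3.52, 214, 303 and 5.10 CPM in ST_HL_Em. The pyruvate decarboxylase Solyc02g077240.4.1, the step before it, had 9.34, 184, 57.4 and 11.8 CPM in HT_DL_Em and 9.90, 67.8, 232 and 14.2 CPM in ST_HL_Em. In both genes replicates 2 and 3 of both conditions were high and replicates 1 and 4 low. The other embryo libraries ran between 0.993 and 16.8 CPM for the dehydrogenase and between 5.70 and 36.4 CPM for the decarboxylase.

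Sucrose synthase, which cleaves sucrose without spending ATP, showed the same libraries. Solyc12g009300.3.1 had 6.39, 65.4, 64.5 and 7.29 CPM in HT_DL_Em and 4.36, 36, 73.9 and 6.63 CPM in ST_HL_Em. Solyc07g042550.3.1 had 32.0, 160, 116 and 28.5 CPM in HT_DL_Em and 24.1, 98.8, 183 and 21.4 CPM in ST_HL_Em. Again replicates 2 and 3 held the high values. The vacuolar acid invertase Solyc03g083910.5.1 followed in HT_DL_Em, with 0.506, 64.2, 22.7 and 1.35 CPM, but not in ST_HL_Em, with 0.985, 1.47, 2.68 and 1.35 CPM. GWD had 2.99, 36.8, 37.7 and 5.26 CPM in HT_DL_Em and 3.38, 27.9, 32.1 and 2.89 CPM in ST_HL_Em, and the galactosyltransferase Solyc07g007930.3.1 had 9.70, 120, 73.8 and 13.4 CPM in HT_DL_Em and 9.38, 151, 178 and 23.9 CPM in ST_HL_Em.

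The endosperm held single libraries of the same kind. The alcohol dehydrogenase Solyc06g059740.4.1 had 5.38, 4.28 and 169 CPM in HT_DL_End, 52.5, 12.5 and 6.05 CPM in ST_DL_End, 4.99, 12.6 and 7.42 CPM in HT_HL_End and 35.1, 106 and 61.7 CPM in ST_HL_End. The sucrose synthase Solyc12g009300.3.1 had 2.02, 3.07 and 44.5 CPM in HT_DL_End, 31.7, 1.31 and 1.84 CPM in ST_DL_End, 1.25, 1.87 and 1.86 CPM in HT_HL_End and 12, 57.3 and 12.2 CPM in ST_HL_End. HT_DL_End replicate 3, ST_DL_End replicate 1 and ST_HL_End replicate 2 were the highest of their conditions in both genes. HT_HL_End was below ST_HL_End in every library of both.

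The subgroup medians moved with these libraries. The 7 fermentation members tested had a median log2 fold change of -2.36 in HT_HL_Em and of -2.68 in ST_DL_Em with no member called, and of -0.02 and 0.16 without the 4 libraries, when 6 members were tested. The sucrose synthases changed sign. In HT_HL_Em the log2 fold change of Solyc12g009300.3.1 was -2.24 (adjusted p = 0.132) with all libraries and 0.27 (adjusted p = 0.461) without the 4, and that of Solyc07g042550.3.1 was -1.13 (adjusted p = 0.282) with all and 0.76 (adjusted p = 0.0143) without the 4. Not every fermentation gene varied in this way. The alcohol dehydrogenase Solyc04g064710.3.1 ran between 127 and 203 CPM over the endosperm libraries and between 197 and 465 CPM over the embryo libraries. What sets the 4 libraries apart was not tested.

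**Figure D5:**
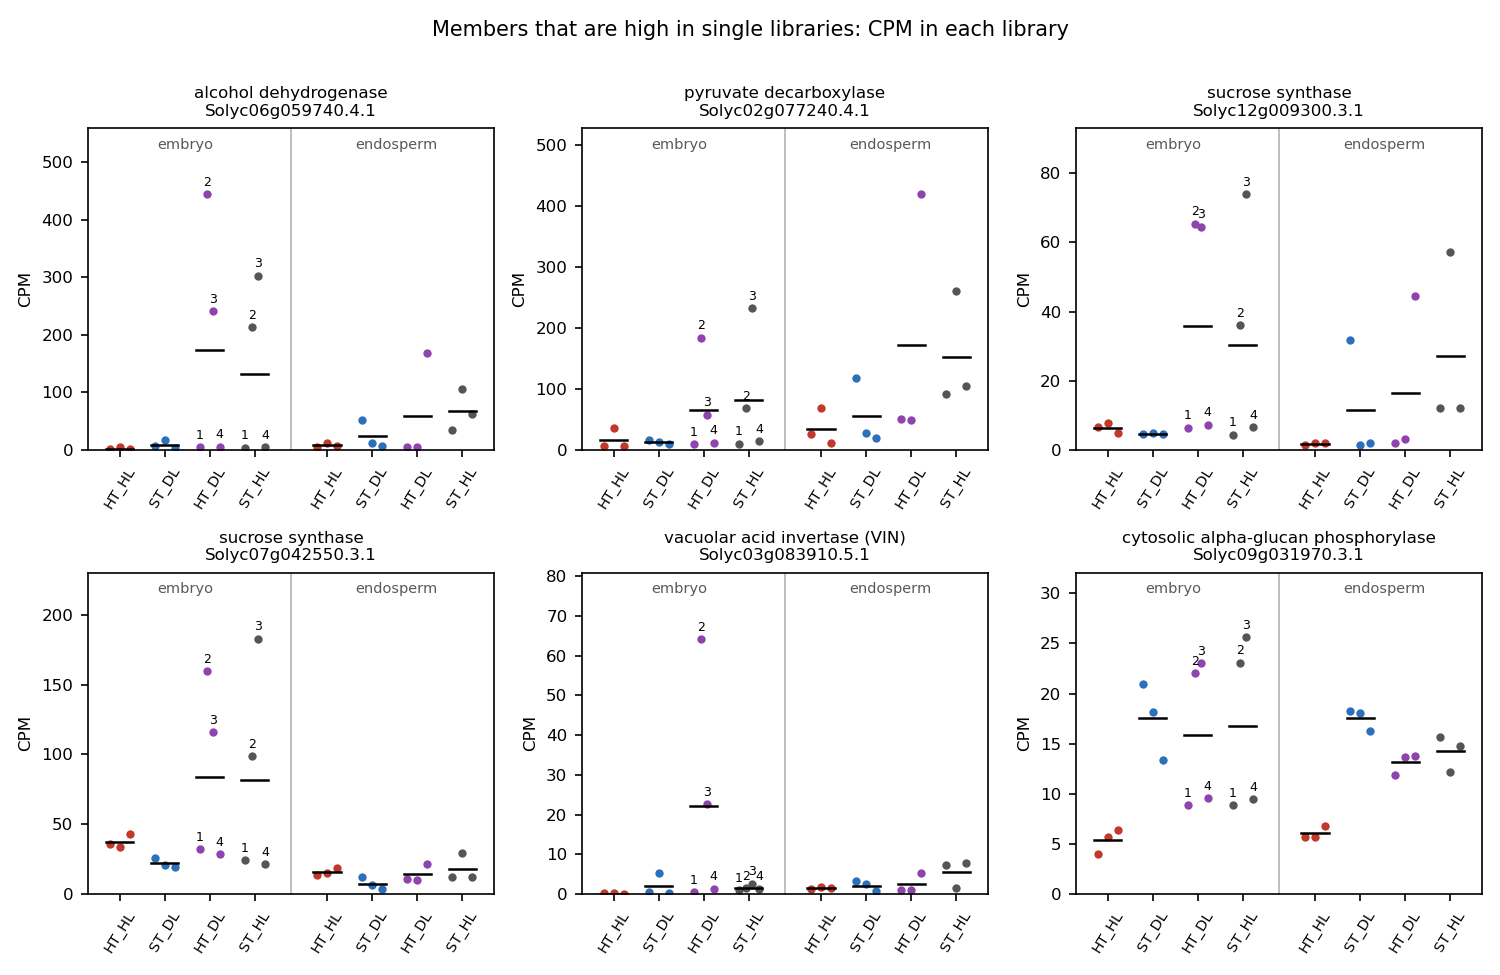
CPM in each library (points) and group mean (bars) for 6 members, with the replicate number printed beside the HT_DL and ST_HL embryo libraries. Replicates 2 and 3 of HT_DL_Em and ST_HL_Em had 214 to 444 CPM of the alcohol dehydrogenase Solyc06g059740.4.1, and replicates 1 and 4 of the same conditions had 3.52 to 5.36 CPM.

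Few members carried most counts of the trehalose and raffinose subgroups. The synthase Solyc07g062140.3.1 held 70.0% of the counts of the 11 trehalose members in the embryo and 56.4% in the endosperm, and the galactinol synthase Solyc01g100830.2.1 held 48.4% and 51.9% of those of the 9 raffinose family members. These are shares of counts and depend on transcript length. Of the phosphatase genes, Solyc04g072920.4.1, Solyc04g082550.2.1, Solyc05g051880.4.1 and Solyc06g060600.3.1 passed no filter and had at most 0.382 CPM in any library. The stachyose synthase Solyc01g079300.4.1, the enzyme of the next chain length, had at most 0.123 CPM, the raffinose synthase Solyc03g112500.4.1 at most 0.648 CPM and the galactinol synthase Solyc02g062590.3.1 at most 0.419 CPM. Trehalase (Solyc08g082860.4.1), which splits trehalose into glucose, ran between 4.69 and 7.05 CPM in the embryo and between 2.67 and 5.18 CPM in the endosperm.

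The tissues themselves were compared in the control, as ST_HL_Em over ST_HL_End. The paper extracted RNA with a different kit setting for each tissue, so tissue and extraction cannot be told apart. Of 213 members tested, 23 were called higher in the embryo (10.8%) and 24 lower (11.3%), where 15.1% and 16.0% of all 21153 genes were, so the members' shares were below the background. Starch biosynthesis members were called higher in the embryo only (5 of 18) and starch degradation members lower only (3 of 30). For starch degradation this was a smaller share than the 16.0% of all genes called lower. In sucrose metabolism 8 were higher and 5 lower of 41, in the raffinose family 1 was higher and 2 lower of 6, in trehalose metabolism 1 was lower of 7, and in nucleotide sugar biosynthesis 8 were higher and 8 lower of 65. Without the 4 embryo libraries that lie apart, 14 members were called higher, 12 of them the same, and 47 lower, 22 of them the same, of 209 tested, where 13.5% of all genes were higher and 19.9% lower. Starch biosynthesis then gave 3 higher and 1 lower of 18, and starch degradation 3 lower of 30. The member counts with single libraries left out ran from 17 (without ST_HL_End replicate 3) to 26 higher and from 20 to 26 lower.

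Among starch genes, Solyc03g083090.4.1, starch synthase SSI, had 57.1, 58.1, 61.8 and 57.0 CPM in ST_HL_Em and 18.3, 17.6 and 20.0 CPM in ST_HL_End (log2 1.65, adjusted p = 7.22e-11). The plastidial phosphoglucomutase had 33.9, 42.8, 47 and 36 CPM in ST_HL_Em and 12.5, 10.9 and 11 CPM in ST_HL_End (1.80, adjusted p = 2.37e-08). On the side of breakdown, the beta amylase Solyc01g067660.3.1 had 6.33, 10.3, 12 and 7.04 CPM in ST_HL_Em and 34.7, 37.5 and 37.0 CPM in ST_HL_End (-2.03, adjusted p = 6.19e-05). The groups of all 3 genes were far apart relative to the spread of their replicates, and without the 4 libraries the differences were 1.59, 1.59 and -2.46 with adjusted p of at most 1.98e-06. The pullulanase Solyc11g008050.1.1, a debranching enzyme, had 0.938, 0.941, 0.865 and 1.49 CPM in ST_HL_Em and 2.77, 1.83 and 2.00 CPM in ST_HL_End (-1.05, adjusted p = 0.00346), and its fold was below the threshold without ST_HL_Em replicate 1, 2 or 3 or ST_HL_End replicate 1 (log2 -0.999 to -0.852). Its fold also missed the threshold without the 4 libraries (log2 -0.868, adjusted p = 0.0432).

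In sucrose metabolism, Solyc04g071340.5.1, the cytosolic fructose-1,6-bisphosphatase, an early step of sucrose synthesis, had 19.5, 23.1, 20.4 and 18.8 CPM in ST_HL_Em and 75.4, 108 and 87.2 CPM in ST_HL_End (log2 -2.14, adjusted p = 1.68e-09). The sucrose-phosphate synthase Solyc07g007790.3.1 had 236, 180, 149 and 210 CPM in ST_HL_Em and 542, 517 and 505 CPM in ST_HL_End (-1.43, adjusted p = 4.64e-08). With the 4 libraries left out these differences were -2.26 and -1.24 and both were called. Not every gene of sucrose synthesis shared this direction. The sucrose-phosphate phosphatase Solyc01g006740.4.1, of the last step, was higher in the embryo (log2 1.34, adjusted p = 1.75e-06), and the second fructose-1,6-bisphosphatase, Solyc12g056530.2.1, had a log2 fold change of 0.74 (adjusted p = 0.103). Among the invertases, the cell wall form Solyc09g010080.3.1 had 0.188, 0.123, 0.453 and 0.542 CPM in ST_HL_Em and 2.40, 2.44 and 2.70 CPM in ST_HL_End (-2.92, adjusted p = 1.11e-05). Its lowest embryo library was at the floor. Another cell wall form, Solyc10g083300.2.1, had 0, 3.44, 4.90 and 0 CPM in ST_HL_Em and 0, 0.0507 and 0 CPM in ST_HL_End, so its call rested on the 2 control embryo libraries that lie apart. The alkaline invertase Solyc01g111100.5.1 had 0.0938, 0.654, 0.494 and 0.0903 CPM in ST_HL_Em and 0.0522, 0 and 0 CPM in ST_HL_End, and was lost without ST_HL_End replicate 2 (adjusted p = 0.0987) or 3 (adjusted p = 0.104). Both are close to the floor in the endosperm and no fold is given.

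In the raffinose family the tissues differed by gene. The galactinol synthase Solyc01g079170.3.1 had 98.9, 58.5, 42.9 and 69.3 CPM in ST_HL_Em and 20.5, 18.1 and 17.9 CPM in ST_HL_End (log2 1.84, adjusted p = 8.26e-06). The raffinose synthase Solyc02g086530.4.1 had 0.0938, 0.0818, 0.123 and 0 CPM in ST_HL_Em and 1.36, 1.17 and 1.40 CPM in ST_HL_End (adjusted p = 0.000332). This gene stayed between 0 and 0.165 CPM in all 14 embryo libraries, near or below the floor. The endosperm held between 0.0997 and 3.56 CPM of it. Solyc07g007930.3.1, a galactosyltransferase whose bin name describes the same step, was well above the floor in both tissues of the control. The galactosyltransferase Solyc07g065980.3.1 had 0.563, 0.818, 0.576 and 0.361 CPM in ST_HL_Em and 0.940, 2.59 and 0.750 CPM in ST_HL_End (-1.29, adjusted p = 0.0262), a call that was lost with the replicate number as a block (adjusted p = 0.111) and without ST_HL_Em replicate 3 (adjusted p = 0.051), ST_HL_Em replicate 4 (adjusted p = 0.0703) or ST_HL_End replicate 2 (adjusted p = 0.399).

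The trehalose-6-phosphate phosphatase Solyc04g054930.3.1 had 1.74, 9.61, 12.9 and 2.12 CPM in ST_HL_Em and 21.9, 22.6 and 21.8 CPM in ST_HL_End (log2 -1.74, adjusted p = 0.0471). The endosperm libraries were close together and above every embryo library, while the embryo libraries split into the pairs described above. The call was lost with the replicate number as a block (adjusted p = 0.0643) and in 5 of the 7 fits that left out a library (adjusted p 0.0824 to 0.114), those without ST_HL_Em replicates 1 and 4 and without each ST_HL_End replicate. Without the embryo libraries that lie apart, which keeps ST_HL_Em replicates 1 and 4, edgeR gave a log2 fold change of -3.53 (adjusted p = 3.43e-07). The ADP-glucose pyrophosphorylase Solyc07g019440.3.1, among the most counted starch members, ran between 80.3 and 116 CPM over the 26 libraries and was called in no comparison.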

How the data were processed

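RNA-seq libraries of 14 embryo and 12 endosperm samples, grouped by their labels, were analysed. The authors quantified reads with Salmon 0.14.1 (quasi-mapping, sequence-bias correction, k-mers of length 31) on the SL4.0 transcripts. The values the authors deposited are expected counts with no normalization, and the 10.5% of them that were not whole were rounded. Reads that fit several transcripts are shared out by Salmon, which makes values of near-identical genes uncertain.

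The conditions of a tissue were fitted together in edgeR 4.0.16 under R 4.3.3 with TMM normalization, after filterByExpr with min.count at 10 and min.total.count at 15. Tissues and tissue differences were tested in a fit of all 26 libraries. Tissue differences were called by adjusted p alone. The spread between replicates (common biological coefficient of variation) was 0.365 for embryo, 0.219 for endosperm and 0.306 for all libraries. Counting error of a single value (the inverse square root of its count) is below this spread above 7.51 counts in embryo and 20.8 in endosperm. The scripts were tested on simulated data.

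Alternatives were DESeq2 1.42.0, limma 3.58.1 voom, the 2 groups alone, RLE normalization, calls by adjusted p alone, all genes with a count kept, the replicate number as a block, leaving out each library, and leaving out the 4 embryo libraries that lie apart. Replicate pairs of a group differed beyond sampling noise (chi-square per degree of freedom 3.83 to 110 over 30 pairs), so none was merged. Pairing by replicate number was checked through correlations of the libraries' deviations from their group means. Same-numbered libraries correlated at 0.728 to 0.805 in all 4 pairs of HT_DL_Em with ST_HL_Em, where the 12 pairs of unlike number ran from -0.795 to 0.819, and at 0.102 to 0.437 in all 3 pairs of ST_HL_Em with ST_HL_End, where the 9 pairs of unlike number ran from -0.408 to 0.377. For these comparisons the value with the replicate number as a block is therefore given beside a named gene whose call it changed, while the reported values come from the fit without the block. What the numbers share is not given in the sources used here. In every other comparison at least 1 pair was below 0.1.

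The members and lists were chosen with earlier results of these data known. Named genes were, for each comparison with ST_HL, the members called, at most 10 per direction, leaving out those with a mean under 1 CPM in both groups; for the tissues, the 2 called members with the largest fold change in each direction in the sucrose, starch, trehalose and raffinose subgroups; and the 2 most counted members of each of these subgroups. This named 39 genes. A further 25 were chosen after their values were seen or called outside that rule, among them the fermentation genes, the sucrose synthases, the starch branching enzyme and the genes with a tissue difference, and members named only for having no or few counts were also chosen after their values were seen.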

Additional observations from a re-analysis of the deposited data

Results flagged for a closer look

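Of 128 groups of 4 libraries examined for the members named, 7 held a library far from the other 3 of its group. Chance alone flags about 1 in 20 groups, which is close to this number. The raffinose synthase Solyc02g086530.4.1 was at 0 CPM in HT_DL_Em replicate 4, where the other replicates had 0.138 to 0.165 CPM, so all were near or below the floor. The alkaline invertase Solyc01g111100.5.1 was highest in HT_DL_Em replicate 3, at 0.536 CPM, where the others had 0 to 0.0409 CPM. The cytosolic fructose-1,6-bisphosphatase Solyc04g071340.5.1 was lowest in HT_DL_Em replicate 1, at 15.9 CPM, where the others had 21.2 to 21.6 CPM. The starch branching enzyme Solyc09g009190.4.1 was lowest in the same library, at 43.6 CPM, where the others had 60.6 to 61.3 CPM. The pullulanase Solyc11g008050.1.1 was highest in ST_HL_Em replicate 4, at 1.49 CPM, where the others had 0.865 to 0.941 CPM. The beta amylase Solyc01g094580.3.1 was lowest in ST_HL_Em replicate 2, at 50.2 CPM, where the others had 57.9 to 58.8 CPM. The sucrose-phosphate phosphatase Solyc01g006740.4.1 was highest in ST_HL_Em replicate 4, at 10.6 CPM, where the others had 9.14 to 9.33 CPM.

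For 6 members the effect of HT_HL differed between the tissues by the test of the difference itself in edgeR, the log2 fold change in the embryo minus that in the endosperm. It was 1.12 for starch synthase SSIII (Solyc02g080570.3.1), 0.59 for starch synthase SSIV (Solyc02g071040.3.1), 1.21 for VTC1 (Solyc06g051270.3.1), 0.506 and -3.17 for the beta amylases Solyc01g094580.3.1 and Solyc08g007130.4.1, and -0.554 for the hexokinase Solyc06g066440.3.1. These were 6 of 213 members tested, where 1.73% of all genes passed. Without the 4 embryo libraries that lie apart, the hexokinase (adjusted p = 0.0822) and VTC1 (adjusted p = 0.0592) no longer passed. The embryo values of Solyc08g007130.4.1 were near the floor, and a library of HT_HL_Em was below it.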

How the results depend on the processing

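Counts of members called in the embryo depended most on the processing. In HT_HL_Em, 1 was called higher and 13 lower, against 0 and 8 with voom, 2 and 5 without the 4 libraries that lie apart, 12 and 24 with no fold threshold, and 29 lower with DESeq2. The replicate number as a block gave 0 and 0 with the 2 groups alone and 31 lower in the fit of the tissue. In ST_DL_Em, 0 higher and 1 lower became 0 lower with the 2 groups alone, with voom, with the block of the 2 groups alone and without the 4 libraries, 13 lower with DESeq2, 14 lower with the block in the fit of the tissue, and 1 higher and 6 lower with no fold threshold. In the endosperm, no fold threshold gave 21 higher and 34 lower in HT_HL, 1 higher and 6 lower in ST_DL, and 1 higher in HT_DL. That gene of HT_DL was the beta amylase Solyc01g067660.3.1. DESeq2 gave 1 higher in HT_DL as well, but put this beta amylase at log2 0.923, below the fold threshold, so its call was another member. The block of the 2 groups alone left 0 of the 2 calls in ST_DL_End. Between the tissues in ST_HL, 23 were higher and 24 lower, against 14 and 47 without the 4 libraries, 46 and 58 with no fold threshold, and 21 and 21 with the block. The tissue difference under HT_HL had 6 calls, and 10 with the block. For HT_DL_Em the block changed no count. The cause of these changes was not tested.

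Leaving out single libraries gave 0 to 1 higher and 2 to 18 lower in HT_HL_Em, 0 to 2 lower in ST_DL_Em, 5 to 7 higher and 3 to 8 lower in HT_HL_End, 1 lower in ST_DL_End, 0 to 1 higher in HT_DL_End, and 17 to 26 higher and 20 to 26 lower between the tissues. RLE normalization and no filter on low counts kept every count within 1.5-fold. Of 90 gene and comparison pairs examined, 2 changed direction under an alternative. These were the sucrose synthases Solyc12g009300.3.1 and Solyc07g042550.3.1 in HT_HL_Em, at log2 0.269 and 0.761 without the 4 libraries. None of the calls did, and 5 in HT_HL_End held in all 13 alternatives: the epimerase Solyc12g010540.1.1, the beta amylase Solyc09g091030.3.1, the dehydrogenase Solyc04g005160.3.1, the raffinose synthase Solyc02g086530.4.1 and the phosphorylase Solyc09g031970.3.1. The plastidial pyruvate kinase Solyc08g077180.3.1 kept its call in HT_HL_Em in 14 of 15. Genes near the floor of 3 counts, and the spread between embryo replicates, set the limits of these results.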
